A study of Homo sapiens with 9 samples.

Results

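The genes described here are caspases and the proteins that switch them on or hold them off, read in BON-1, an established cell line from a human pancreatic neuroendocrine tumour. They are the initiator caspases CASP2, CASP8 and CASP9, the executioner CASP6, and the regulators APAF1, CYCS, XIAP and DIABLO. The members were all probes of the array that the platform annotation assigns to these 8 genes, which gave 19 of 47231 probes, for 8 of the 20042 genes with a probe of that gene alone. RNA was read on 9 single-colour Illumina HumanHT-12 BeadChips. The 3 groups, with 3 arrays each, were cells with the control lentiviral vector pLKO.1, cells with shRNA 1 against RABL6A and cells with shRNA 2 against RABL6A, a product of the RAB-like GTPase gene RABL6. The labels describe separately generated sets of cells of this 1 line and do not say how far they were separate transductions. The p-values therefore cover only the spread among these samples.

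Caspases are proteases that are made as inactive precursors and dismantle the cell once they are switched on. In the mitochondrial route, cytochrome c leaves the mitochondria and binds APAF1, and the resulting apoptosome activates CASP9. CASP8 is activated at death receptors and CASP2 on a platform of PIDD1 and CRADD, while XIAP blocks active caspases and DIABLO, released with cytochrome c, displaces XIAP. The arrays read RNA and not the cleaved proteins.

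Of the 19 probes 12 were detected on all 9 arrays (detection p under 0.05). The test took the 16 probes detected on at least 3 arrays, with at least 1 for each of the 8 genes. The other 3 probes, 1 for CASP2 and 2 for CASP8, were near background. Values below are background-corrected, quantile-normalised signals on a log2 scale, and levels of different probes are not comparable with each other. On these scales 5 of the 16 probes passed the test with both shRNAs pooled against vector (limma, Benjamini-Hochberg adjusted p under 0.05), 2 higher and 3 lower. Over all 22011 probes tested 13.2% passed, 6.57% higher and 6.63% lower. Under median centring instead of quantile normalisation, the share of called probes that were higher was 27.8% and not 49.8%. The median change was -0.04 for the 16 probes and 0.02 for all probes. All 6 knockdown arrays lay on 1 side of all 3 vector arrays for 7 of the 16 probes, against 25.4% of all probes (12.7% above and 12.6% below).

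The shRNA arrays did not group by their labels. Across probes, Pearson's r between shRNA 1 replicate 2 and shRNA 2 replicate 1 was 0.994, and it was 0.945 between shRNA 1 replicates 2 and 1. Between shRNA 2 replicate 2 and shRNA 1 replicate 1 it was 0.995, against 0.944 between shRNA 2 replicates 2 and 1. Groups follow the labels as given. Results are also given on 7 arrays, without the shRNA arrays numbered 2, and leaving them out makes each shRNA group tighter by construction. If the labels of the 4 remaining shRNA arrays were the exchanged ones, their values would trade places. RABL6 was lower on every knockdown array, at 5.22 to 6.01 against 7.57 to 7.82 with vector (log2 change -1.99, SE 0.19, limma adjusted p = 0.0014). All 10 neuroendocrine markers examined, among them CHGA and SYP, were detected on every array. Their summed raw signal was 68835 to 71303 with vector and 49578 to 60198 on the knockdown arrays. No more than 2 of 8 fibroblast and 3 of 6 endothelial markers were detected on an array. In bulk RNA, fewer cells with a transcript and less of it per cell cannot be told apart.

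CASP2, an initiator caspase linked to the surveillance of centrosome number and DNA damage, had the largest change of the 8 genes. Its brighter probe (ILMN_2410540) read 11.12, 11.15 and 11.10 on vector replicates 1, 2 and 3. Under shRNA 1 it read 8.84, 9.94 and 9.50, and under shRNA 2 9.60, 9.33 and 9.96. The vector arrays were close together, and the knockdown arrays, all lower, were spread over more than a log2 unit, lowest on shRNA 1 replicate 1 and shRNA 2 replicate 2. Vector averaged 11.13 ± 0.03 (SD, n = 3). The shRNA 1 arrays averaged 9.43 ± 0.55 (SD, n = 3), and the shRNA 2 arrays 9.63 ± 0.32 (SD, n = 3).

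The pooled knockdown level of the brighter CASP2 probe was 33.1% of vector, a log2 change of -1.60 (SE 0.23, 95% interval -2.12 to -1.07, limma adjusted p = 0.0051), with 6 of 6 arrays lower. The second CASP2 probe (ILMN_1736568), annotated to another transcript, gave 7.84, 8.23 and 7.95 with vector, 5.68, 6.78 and 6.05 under shRNA 1 and 6.44, 5.91 and 6.86 under shRNA 2. It fell by 1.72 (SE 0.27, limma adjusted p = 0.0069), and ranked the 6 knockdown arrays in the same order as the first probe. Its change was -0.99 with no background correction, where its raw knockdown signals of 150 to 221 stand on a background near 120. Both probes passed under each of 9 fits that leave out 1 array. Another probe (ILMN_2296057), annotated to the same transcript as the first, was detected on 1 of 3 vector arrays and on no knockdown array, and gives no fold.

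With each shRNA on its own the CASP2 probes fell as well. The brighter probe changed by -1.70 (SE 0.27) with shRNA 1 and -1.49 (SE 0.27) with shRNA 2, with limma adjusted p = 0.0116 and 0.0187. For the second probe they were -1.83 (SE 0.31) and -1.60 (SE 0.31), with limma adjusted p = 0.0145 and 0.0242. Without any 1 of the vector arrays neither probe passed with either shRNA, and neither passed with shRNA 2 without its replicate 1, nor the second probe with shRNA 1 without its replicate 1 (highest adjusted p 0.108). Both comparisons share the vector arrays.

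The 300 bases around the CASP2 start sites are shown because CASP2 moved most; those of CASP9 and CYCS follow for the gene that moved the opposite way and the gene whose arrays split. Each window runs 5′ to 3′ from 250 bases before to 50 after a RefSeq start (GRCh38.p14), in lower case. Capitals mark, on either strand, the E2F sequences TTTCCCGC and TTTGGCGC, the cell cycle homology region TTTGAA, the E-box CACGTG, the CCAAT box CCAAT and the GC box GGGCGG, with no overlap between different ones.
CASP2 window 1, chr7:143288101-143288400, plus strand: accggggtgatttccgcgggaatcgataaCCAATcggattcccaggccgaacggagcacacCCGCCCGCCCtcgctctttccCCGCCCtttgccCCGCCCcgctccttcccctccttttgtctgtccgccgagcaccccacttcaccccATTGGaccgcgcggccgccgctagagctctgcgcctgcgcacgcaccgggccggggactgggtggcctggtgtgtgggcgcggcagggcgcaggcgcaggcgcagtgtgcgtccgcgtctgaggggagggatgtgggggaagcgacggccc
CASP2 window 2, chr7:143289338-143289637, plus strand: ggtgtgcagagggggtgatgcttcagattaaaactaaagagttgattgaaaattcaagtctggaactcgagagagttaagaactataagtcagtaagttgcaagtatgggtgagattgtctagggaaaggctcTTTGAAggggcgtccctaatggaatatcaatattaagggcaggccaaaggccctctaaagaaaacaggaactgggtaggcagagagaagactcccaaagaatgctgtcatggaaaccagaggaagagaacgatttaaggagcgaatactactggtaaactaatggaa
CASP9 window 1, chr1:15524741-15525040, minus strand: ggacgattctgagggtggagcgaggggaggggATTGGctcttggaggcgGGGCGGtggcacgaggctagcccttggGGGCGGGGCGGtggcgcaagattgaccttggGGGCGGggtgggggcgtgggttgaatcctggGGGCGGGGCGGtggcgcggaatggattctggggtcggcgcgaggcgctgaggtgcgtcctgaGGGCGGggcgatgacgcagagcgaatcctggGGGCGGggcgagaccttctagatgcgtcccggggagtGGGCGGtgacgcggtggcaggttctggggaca
CASP9 window 2, chr1:15524166-15524465, minus strand: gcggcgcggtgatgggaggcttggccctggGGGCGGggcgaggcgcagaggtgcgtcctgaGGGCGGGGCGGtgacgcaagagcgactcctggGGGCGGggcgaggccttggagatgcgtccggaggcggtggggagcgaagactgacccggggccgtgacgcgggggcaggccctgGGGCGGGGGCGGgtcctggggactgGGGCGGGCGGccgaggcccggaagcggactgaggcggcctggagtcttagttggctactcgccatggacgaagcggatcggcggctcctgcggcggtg
CYCS window 1, chr7:25125211-25125510, minus strand: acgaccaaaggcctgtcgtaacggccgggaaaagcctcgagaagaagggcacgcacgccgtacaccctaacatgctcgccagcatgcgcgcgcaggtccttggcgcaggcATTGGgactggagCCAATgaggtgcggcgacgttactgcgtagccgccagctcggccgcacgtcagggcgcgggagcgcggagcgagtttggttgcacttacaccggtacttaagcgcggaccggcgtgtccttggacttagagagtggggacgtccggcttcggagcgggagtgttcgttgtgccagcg

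The first CASP2 window held 2 CCAAT and 4 GC box sequences and no TTTGAA, and the second, downstream one held 1 TTTGAA and none of the others. The CASP9 windows held 9 and 8 GC boxes, the first with 1 CCAAT. The CYCS window held 2 CCAAT and no GC box. The E2F sequences were in 0 of the 17 windows of the 8 genes; TTTCCCGC was in 1.63% and TTTGGCGC in 0.652% of all 35116 windows. TTTGAA was in 15.2%, CACGTG in 7.26%, CCAAT in 34.6% and GGGCGG in 45% of all windows. A match describes the letters only, and its absence says nothing about a factor.

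CASP9, the initiator caspase of the apoptosome, was the member that rose most. Its brighter probe (ILMN_1718070) read 7.50, 7.71 and 7.40 with vector, 8.56, 8.26 and 8.30 under shRNA 1 and 8.43, 8.48 and 8.14 under shRNA 2. The lowest knockdown array, shRNA 2 replicate 3, lay above the highest vector array. Vector averaged 7.53 ± 0.16 (SD, n = 3), shRNA 1 averaged 8.38 ± 0.16 (SD, n = 3) and shRNA 2 averaged 8.35 ± 0.18 (SD, n = 3). The probe rose by 0.83 (SE 0.14, limma adjusted p = 0.008), to 177% of vector, with 6 of 6 arrays higher. The call was lost without vector replicate 1 or vector replicate 3 (highest adjusted p 0.0578).

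With the single shRNAs this CASP9 probe rose by 0.84 (SE 0.16, limma adjusted p = 0.0195) and 0.81 (SE 0.16, limma adjusted p = 0.0242). Neither passed without any 1 vector array, nor without replicate 1 of the shRNA tested (highest adjusted p 0.112), and with median centring the change under shRNA 2 was 0.64 and did not pass (limma adjusted p = 0.0518). The second CASP9 probe (ILMN_1786046), annotated to another transcript, was dim and detected on 7 of 9 arrays. It read 5.20, 4.80 and 5.38 with vector and 4.78 to 5.57 on the knockdown arrays, with overlapping groups. Its change was 0.16 (SE 0.21, 95% interval -0.31 to 0.63), and it turned negative with array weights and without vector replicate 2. Which other transcripts each probe reads was not examined.

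APAF1, the scaffold of the apoptosome, did not pass the test. Its brighter probe (ILMN_1659463) read 8.83, 8.32 and 8.87 with vector, 7.89, 8.62 and 8.49 under shRNA 1 and 8.73, 8.28 and 8.55 under shRNA 2. The groups overlapped, with shRNA 1 replicate 1 lowest. The change was -0.25 (SE 0.21, 95% interval -0.71 to 0.22, limma adjusted p = 0.474). The second APAF1 probe (ILMN_2344798) was detected on 3 of 9 arrays, at 4.71 to 5.44, and its change of -0.08 (SE 0.18) turned positive without vector replicate 2.

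CYCS, cytochrome c, the electron carrier that becomes the apoptosome's ligand once released, had an average change near 0 that described none of its knockdown arrays. Its probe (ILMN_1730416) read 7.26, 7.55 and 7.37 with vector, 8.29, 6.55 and 7.80 under shRNA 1 and 6.80, 8.32 and 6.67 under shRNA 2. The arrays shRNA 1 replicates 1 and 3 and shRNA 2 replicate 2 lay above all vector arrays, and shRNA 1 replicate 2 and shRNA 2 replicates 1 and 3 below all of them. Relative to the vector mean the high arrays stood at 0.89, 0.41 and 0.93 and the low ones at -0.85, -0.60 and -0.73.

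Taken by label, CYCS changed by 0.01 with both shRNAs (SE 0.44, 95% interval -0.99 to 1.01, limma adjusted p = 0.991), and its SD was 0.90 (n = 3) with shRNA 1 and 0.92 (n = 3) with shRNA 2 against 0.14 (n = 3) with vector. On 7 arrays CYCS rose by 0.65 with shRNA 1 (SE 0.17, limma adjusted p = 0.0162) and fell by 0.66 with shRNA 2 (SE 0.17, limma adjusted p = 0.0198). There shRNA 2 minus shRNA 1 was -1.32 (SE 0.19, limma adjusted p = 0.001, higher in 2 of 2 shRNA 1 arrays), and it was also called on 9 arrays with array weights. These are the arrays whose labels are in doubt, and 33.3% of all probes were called between the shRNAs on 7 arrays. The RefSeq gene table names 45 pseudogenes after CYCS, and whether the probe also reads any of them was not examined.

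The raw signal of CD68, a lysosomal protein of macrophages and other cells, moved with this split. The split is not particular to CYCS or CD68, as the same arrays grouped together in the correlations over all probes. The brightest CD68 probe read 2106, 1911 and 1311 on the arrays with low CYCS and 485, 498 and 546 on those with high CYCS, against 615 to 687 with vector. The summed raw signal of the leukocyte list, which CD68 dominates, was 3020 to 3152 with vector and 2801 to 5067 on the knockdown arrays, with 3 or 4 of 8 markers detected per array. PTPRC, CD3E and CD8A, which define leukocytes and T cells, were detected on no array. The part of this in the CYCS values was not tested.

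**Figure D1:**
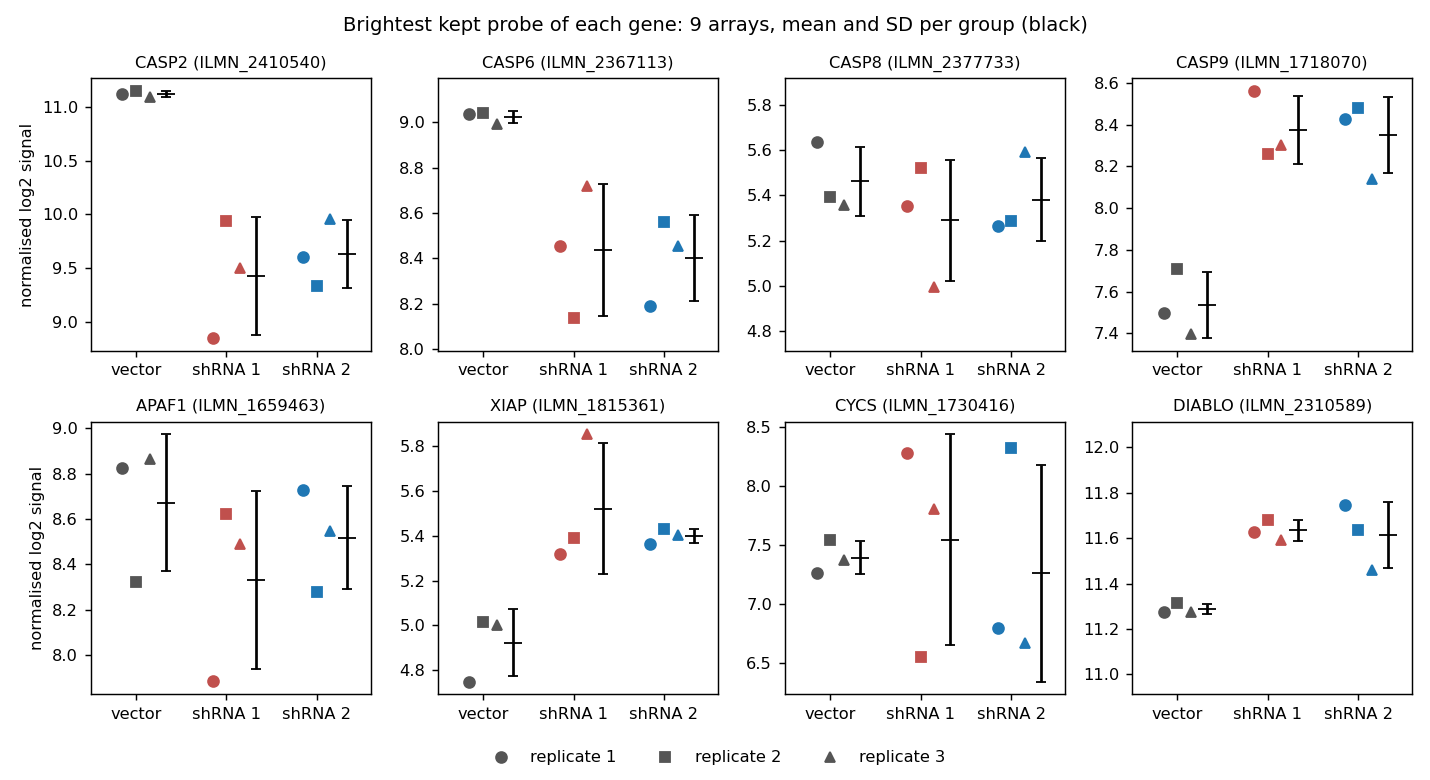
Normalised log2 signal of the brightest kept probe of each of the 8 genes on 9 arrays, by labelled group; symbols give the replicate number, and black bars the mean and SD of 3 arrays. CASP2 is lower and CASP9 higher on all 6 knockdown arrays, while CYCS lies on both sides of vector within each shRNA, from 6.55 to 8.29 with shRNA 1 and from 6.67 to 8.32 with shRNA 2. The vertical axes differ between panels.

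CASP6, an executioner caspase that cleaves lamin A, had 3 probes, all with lower means on the knockdown arrays. The brightest (ILMN_2367113) read 9.04, 9.04 and 8.99 with vector, 8.46, 8.14 and 8.72 under shRNA 1 and 8.19, 8.56 and 8.45 under shRNA 2. The 6 knockdown arrays were all below the vector arrays, and shRNA 1 replicate 3 came closest. This probe fell by 0.60 (SE 0.15, limma adjusted p = 0.0336), to 65.9% of vector. It lost its call without any 1 of the vector arrays, shRNA 1 replicate 1 or shRNA 2 replicate 1 (highest adjusted p 0.13).

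The other CASP6 probes did not pass, with overlapping groups. ILMN_1694877 changed by -0.44 (SE 0.15, limma adjusted p = 0.0874) and read 8.67 to 9.12 with vector and 8.29 to 8.67 on the knockdown arrays. ILMN_1659350 also changed by -0.44 (SE 0.21, limma adjusted p = 0.193), from 6.31 to 6.61 with vector and 5.39 to 6.41 on the knockdown arrays. Its change was -0.18 with no background correction. With the single shRNAs no CASP6 probe passed on 9 arrays. On 7 arrays ILMN_2367113 fell by 0.43 with shRNA 1 (limma adjusted p = 0.0406) and by 0.69 with shRNA 2 (limma adjusted p = 0.0073), and ILMN_1694877 fell by 0.51 with shRNA 2 (limma adjusted p = 0.045).

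CASP8, the initiator caspase of death receptors, was close to background in these cells. Its probe detected on all 9 arrays (ILMN_2377733) had raw signals of 124 to 152, and the array medians were 119 to 129. It read 5.36 to 5.64 with vector and 4.99 to 5.59 on the knockdown arrays, and its change was -0.13 (SE 0.16, 95% interval -0.48 to 0.22). A probe detected on 8 arrays (ILMN_1673757) changed by 0.14 (SE 0.14, 95% interval -0.17 to 0.46). The remaining CASP8 probes (ILMN_1809313 and ILMN_1787749) were detected on 0 of 9 arrays and give no fold. A difference in CASP8 within these intervals was not detectable with 9 arrays.

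XIAP, the inhibitor that binds caspases directly, was higher on every knockdown array, at a signal near background. Its probe (ILMN_1815361) read 4.75, 5.02 and 5.002 with vector, 5.32, 5.39 and 5.85 under shRNA 1 and 5.36, 5.43 and 5.40 under shRNA 2. The groups did not overlap, and it was detected on 2 of 3 vector and 6 of 6 knockdown arrays. XIAP rose by 0.54 (SE 0.15, limma adjusted p = 0.0439), to 145% of vector. The raw signals were 122 to 135 with vector and 138 to 149 with the shRNAs, so the size rests on the background step. With no background correction XIAP stood at 0.17 and was not called (nor was it with normexp and an offset of 50, or median centring), and the call held in 1 of 9 fits that leave out 1 array, that without shRNA 1 replicate 2 (highest adjusted p 0.19). RefSeq names 3 pseudogenes after XIAP, which the probe may also read.

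DIABLO, the mitochondrial protein that displaces XIAP from caspases, did not pass the test with any of its 3 probes. The brightest (ILMN_2310589) read 11.28, 11.32 and 11.28 with vector, 11.63, 11.68 and 11.59 under shRNA 1 and 11.75, 11.64 and 11.46 under shRNA 2. All 6 knockdown arrays were above the vector arrays, and the change was 0.34 (SE 0.11, 95% interval 0.08 to 0.59, limma adjusted p = 0.0818). It was called under 5 of 23 alternatives. The second (ILMN_2332990), at 8.53 to 8.70 with vector and 8.75 to 8.97 on the knockdown arrays, also did not overlap and changed by 0.24 (SE 0.11, limma adjusted p = 0.198). The third (ILMN_1665335) overlapped, at 6.72 to 7.03 and 6.50 to 7.33, with a change of 0.07 (SE 0.18) that turned negative with median centring, with array weights and on 7 arrays.

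**Figure D2:**
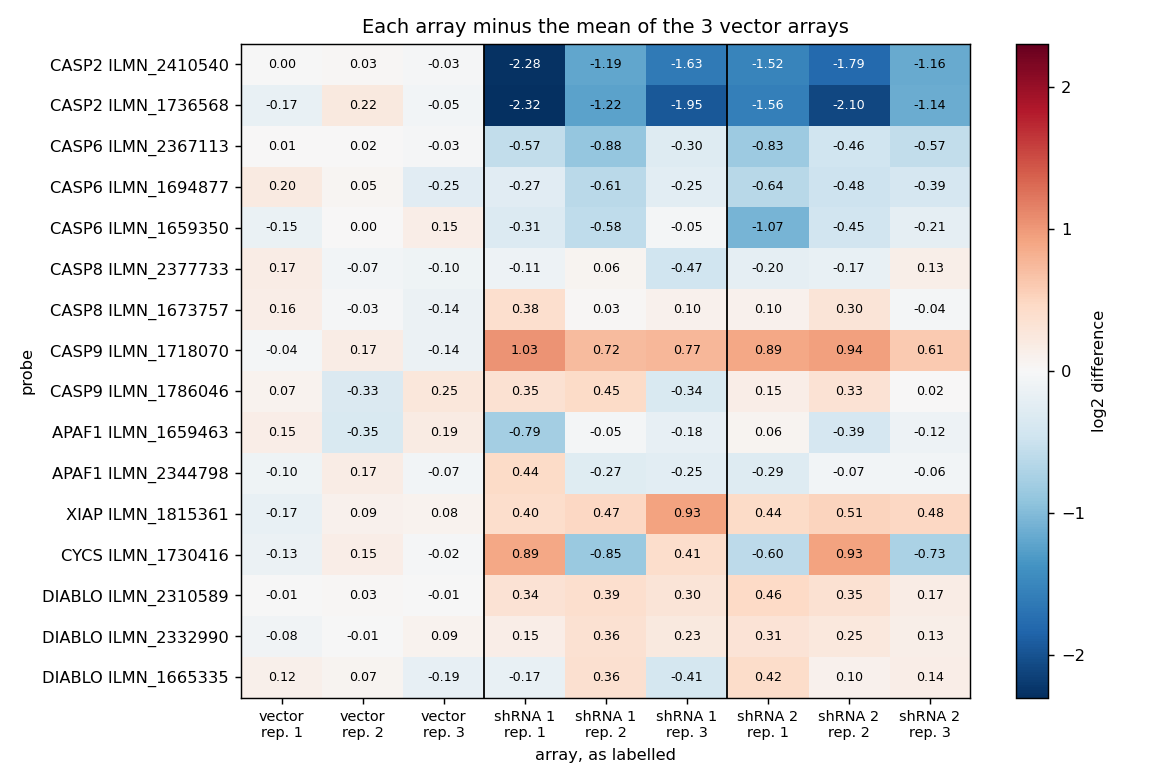
Log2 difference of each array from the mean of the 3 vector arrays (columns, in labelled groups) for the 16 kept probes (rows), with red higher and blue lower. Both CASP2 probes are blue on all 6 knockdown arrays, deepest at -2.28 and -2.32 on shRNA 1 replicate 1, and CYCS is red on 3 knockdown arrays and blue on 3.

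Set against vector one by one, each shRNA called 3 of the 16 probes, 1 higher and 2 lower: the CASP9 probe and both CASP2 probes in each case. Of all probes 8.26% were called with shRNA 1 (4.08% higher and 4.18% lower) and 6.61% with shRNA 2 (3.36% higher and 3.25% lower). On 7 arrays shRNA 1 called 6 of 16 probes, 3 higher and 3 lower, against 35.3% of all (18.2% higher and 17.1% lower). There shRNA 2 called 6, 1 higher and 5 lower, against 28% of all (14% higher and 14.1% lower). With both shRNAs together on 7 arrays 5 probes were called, those called on 9 arrays, against 32.3% of all probes (15.9% higher and 16.4% lower).

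The direct test of shRNA 2 against shRNA 1 called 0 of the 16 probes and 0% of all probes on 9 arrays with limma. At an unadjusted p under 0.05 it gave 0 of the 16 and 239 of 22011. Because the shRNA arrays grouped across labels, the spread within each labelled group holds the difference between those groupings. The test on 9 arrays therefore cannot show that the shRNAs acted alike. The 95% interval of the difference was -0.40 to 0.81 for the brighter CASP2 probe, -0.39 to 0.34 for CASP9, -0.51 to 0.26 for XIAP and -1.44 to 0.87 for CYCS. On 7 arrays 3 of 16 probes were called, against 33.3% of all (16.2% higher and 17.1% lower): CYCS, the dimmer CASP2 probe at 0.78 (SE 0.21, limma adjusted p = 0.0188) and the DIABLO probe ILMN_1665335 at 0.57 (SE 0.17, limma adjusted p = 0.0307).

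**Figure D3:**
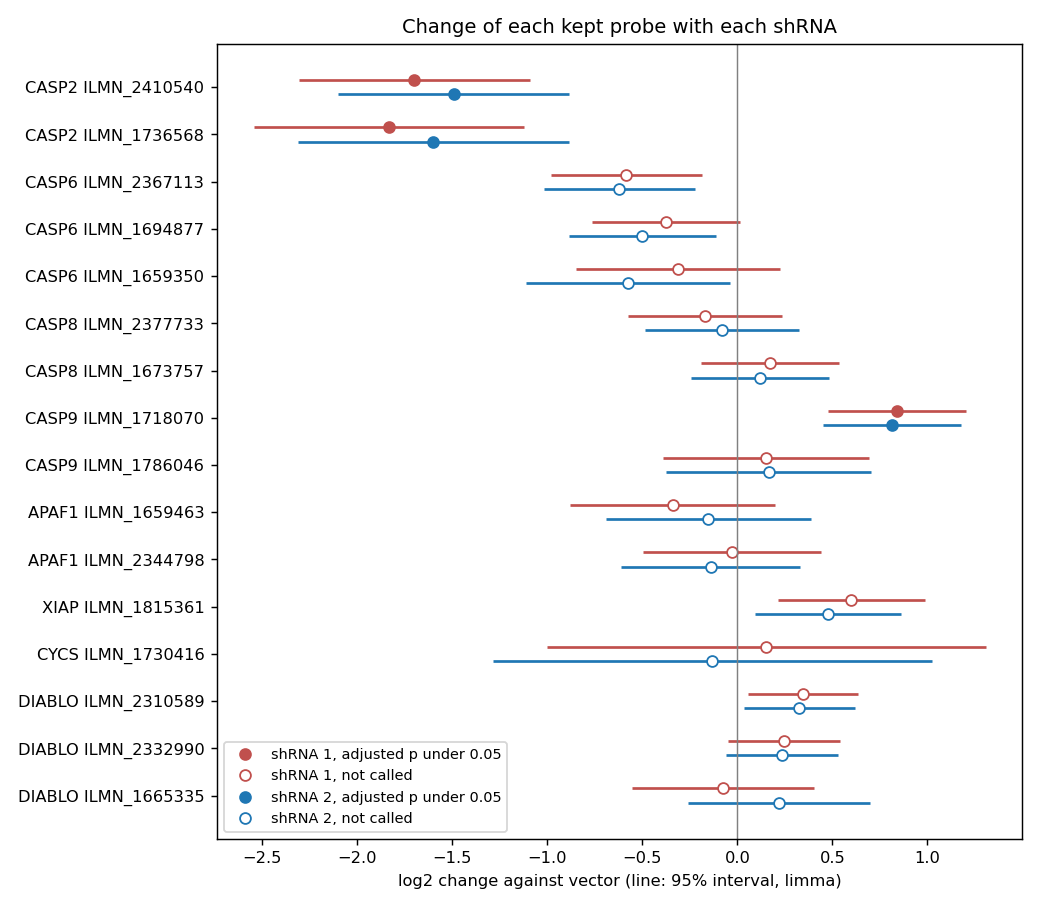
Log2 change against vector with its 95% limma interval for each kept probe, separately for shRNA 1 (red) and shRNA 2 (blue); filled points passed at an adjusted p under 0.05. The CASP2 probes and the brighter CASP9 probe are filled for both shRNAs, and the CYCS intervals are the widest, reaching 1.31 with shRNA 1 and -1.29 with shRNA 2.

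The platforms that activate initiator caspases held 2 called genes of 10 tested, both partners of CASP2. PIDD1, the scaffold that assembles the CASP2 platform, read 6.53, 6.82 and 6.43 with vector, 5.63, 5.81 and 5.95 under shRNA 1 and 6.11, 5.78 and 5.62 under shRNA 2, and fell by 0.78 (SE 0.16, limma adjusted p = 0.0149). CRADD, the adaptor between PIDD1 and CASP2, read 8.23, 8.23 and 8.27 with vector, 8.88, 8.64 and 8.71 under shRNA 1 and 8.59, 8.82 and 8.56 under shRNA 2, and rose by 0.45 (SE 0.12, limma adjusted p = 0.0362). Neither gene's groups overlapped. With shRNA 1 and shRNA 2 singly, PIDD1 passed with each (limma adjusted p = 0.0325 and 0.0412) and CRADD with neither (limma adjusted p = 0.0571 and 0.107). PIDD1 lost its call without any 1 vector array, and CRADD in 6 of 9 such fits and with median centring or cyclic loess. Over the brightest kept probe of all 12498 genes 15.6% were called, 7.95% higher and 7.63% lower.

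Among 16 genes of executioner caspase substrates, 3 rose and 2 fell, where 15.6% of all genes were called (7.95% higher and 7.63% lower). Their median change was 0.13 against 0.03 for all genes. LMNB1, a lamin of the nuclear envelope, fell by 1.53 (SE 0.31), from 9.23 to 9.38 with vector down to 7.06 to 8.62 on the knockdown arrays. PAK2, a kinase that caspases activate by cleavage, fell by 1.04 (SE 0.22). GSN, the actin-severing protein gelsolin, rose by 1.03 (SE 0.20), and LMNA, the CASP6 substrate lamin A, by 0.65 (SE 0.14), from 10.93 to 11.08 up to 11.39 to 11.89. PANX1, a membrane channel opened by caspase cleavage, rose by 0.46 (SE 0.12). These 5 genes had limma adjusted p from 0.0141 to 0.0326, and each lost its call without any 1 of the vector arrays, PANX1 also without shRNA 1 replicate 1 or shRNA 2 replicate 1. LMNA and PANX1 were not called with median centring, nor PANX1 with an intensity trend. Of these genes only GSN passed with each shRNA singly. LMNB1, PAK2 and LMNA passed with shRNA 1 but not with shRNA 2 (limma adjusted p = 0.0556, 0.0868 and 0.0554). PANX1 passed with neither (limma adjusted p = 0.0756 with shRNA 1 and 0.0662 with shRNA 2).

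In the BCL2 family, which controls the release of cytochrome c, 2 of 15 tested genes rose and 0 fell (median 0.19). Of all genes 15.6% were called, 7.95% higher and 7.63% lower. BIK, a BH3-only protein, was detected on 0 of 3 vector and 6 of 6 knockdown arrays. With the settings of the main test its level under the shRNAs was higher by at least 2.08-fold. For this bound the vector level was the lowest detected signal of each array. The test of the change itself, not of the bound, gave limma adjusted p = 0.0073. The bound does not carry over to other settings, where the log2 change of BIK ranged from 0.45 to 1.44. The BIK probe met the detection filter only through the knockdown arrays, where it was high, so its call is not separate support for a rise. MCL1, a survival protein, rose by 0.56 on the brightest of its kept probes (SE 0.16, limma adjusted p = 0.0483). The MCL1 call was kept in 2 of 9 fits without 1 array. It was lost with median centring, cyclic loess, no filter on dim probes and the authors' value table. With shRNA 1 singly MCL1 changed by 0.74 (limma adjusted p = 0.0414), and with shRNA 2 by 0.37, which did not pass (limma adjusted p = 0.255). PMAIP1 had the largest rise of the family, 1.67 (SE 0.49), and BCL2 the largest fall, -1.06 (SE 0.37). Neither passed on 9 arrays (limma adjusted p = 0.0546 and 0.0916), and both passed on 7 arrays (limma adjusted p = 0.00023 and 0.00087). On 7 arrays 5 genes of the family were called higher and 4 lower, 9 of 15, where 37.7% of the 12498 genes were called (18.8% higher and 18.8% lower).

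In the other 4 lists 0 genes passed with limma on both shRNAs; at an unadjusted p under 0.05 the counts were 1 of 2, 1 of 3, 2 of 8 and 2 of 9 in the order given here, against 32.4% of all genes. In the list of other caspases, which includes CFLAR, a caspase-like inhibitor of CASP8, CASP4 and CFLAR were tested. CFLAR changed by 0.37 (SE 0.12, limma adjusted p = 0.0789) and was called higher on 7 arrays (limma adjusted p = 0.044). CASP1, CASP5, CASP10 and CASP14 were too dim to test. Of the inhibitor of apoptosis family BIRC2, BIRC5 and BIRC6 were tested. BIRC2 changed by 0.50 (SE 0.16, limma adjusted p = 0.0762) and was called higher on 7 arrays (limma adjusted p = 0.0125). BIRC5, survivin, read 7.26 to 9.95 on the knockdown arrays and 9.81 to 9.82 with vector, at -1.09 (SE 0.58, limma adjusted p = 0.248), lowest on shRNA 1 replicate 1 and shRNA 2 replicate 2. Of 8 genes of mitochondrial release and IAP antagonism and 9 genes listed as apoptosome regulators 0 were called on 9 arrays with limma. On 7 arrays 1 rose and 2 fell in the first list and 2 fell in the second, against 37.7% of all genes called there. The 2 in the second list were PTMA and SLBP, and SLBP is a histone mRNA-binding protein.

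The genes whose profile over the 9 arrays was closest to the brighter CASP2 probe were RCC1, FGFR4, ABCA3 and CCNJ. Their root mean square differences from CASP2, after each profile was centred, were 0.13, 0.13, 0.13 and 0.14 on the log2 scale, where the CASP2 profile itself spread by 0.81. Closest to CASP9 were TOX4, KLHL7, SNTB1 and CHDH, at 0.08 each against a CASP9 spread of 0.41. These were picked from 12498 genes for their likeness, and the likeness is a description.

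**Figure D4:**
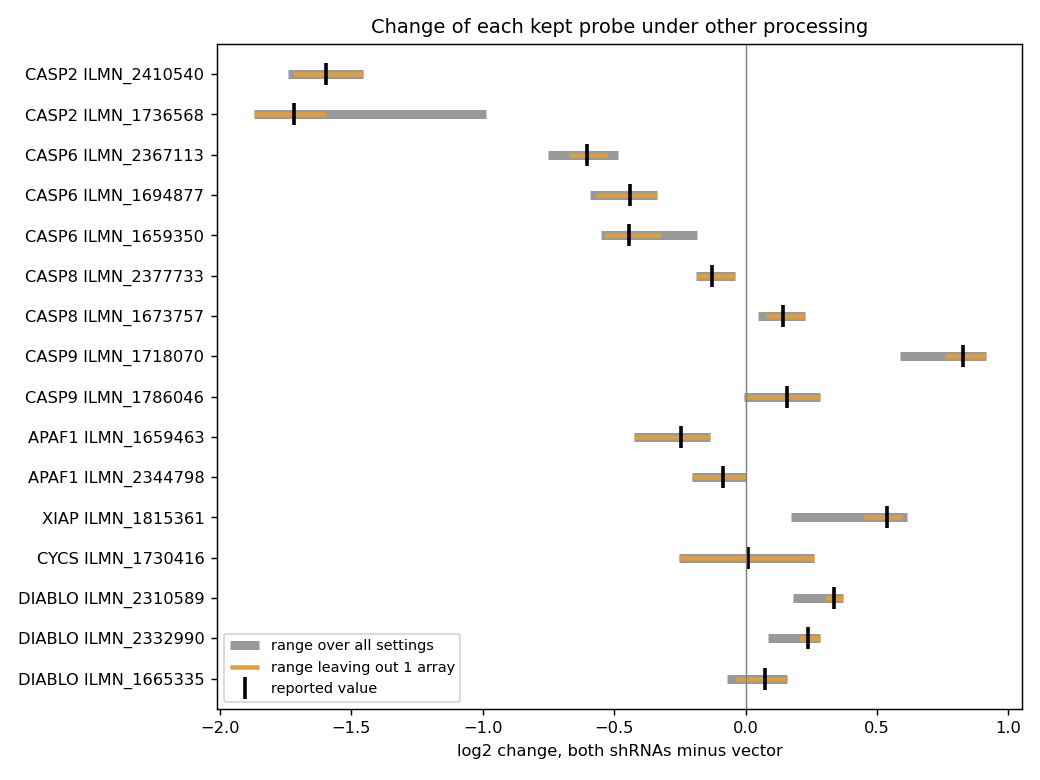
Log2 change with both shRNAs against vector for each kept probe: the black mark is the reported value, the orange line its range over 9 fits that leave out 1 array, the grey bar its range over all settings. The CASP2 probes reach no higher than -0.99 and the brighter CASP9 probe no lower than 0.59, while CYCS runs from -0.25 to 0.26.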

How the data were processed

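Total RNA of the 3 groups was read on 9 arrays. The authors' main deposited table gives signal intensity per probe, neither background-subtracted nor normalised per the file headers, with a deposited detection p-value per array; the submitters' processing notes name GenomeStudio, with no version. The authors' value table holds deposited intensity of 47219 probes and was an alternative; its columns share a minimum of -23.85, a maximum of 26422 and medians of 7.93 to 7.96, and how it was made is not stated in the sources read.

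In R 4.3.3, limma 3.58.1's nec function estimated background from the detection p-values (offset 16); quantile normalisation and log2 followed; changes of dim probes are understated. Probes detected on at least 3 arrays were kept (22011 of 47231). The 9 arrays entered 1 linear model holding the 3 group means (lmFit, eBayes), with Benjamini-Hochberg adjustment over all kept probes. Probe names came from the platform annotation. The number of arrays limits the precision. Between 41.4% and 44.9% of probes were detected per array.

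All member probes are named, with RABL6, up to 4 called genes per pathway list in either direction (5 are given for caspase substrates, PANX1 being added after its value was seen) and 4 genes like CASP2 and CASP9. Of the list genes without a call, those named were also chosen after their values were seen. Values of list genes are those of the brightest kept probe. LMNA, MCL1, PMAIP1, BCL2, BIRC2, BIRC5 and SLBP had other kept probes, whose changes are not given. Members and lists were chosen with earlier results of these data known. Promoter windows were matched by symbol for 8 of 8 genes. On simulated data (200 of 22011 probes changed, 20 runs, both shRNAs against vector) the test found 52.95% of the 2-fold and 88.45% of the 4-fold changes, with 7.8 false calls a run. The simulated noise was independent and gave a probe the same spread on all arrays. In these data the knockdown arrays grouped across labels, and probes such as CASP2 and CYCS spread more there than with vector. The simulated rates therefore need not hold for these data. Alternatives were other background steps, normalisations, filters, variance priors, array weights, 1 probe a gene, only the compared groups, the replicate number as a block and arrays left out. Deviations of same-numbered arrays from their group means correlated at -0.87 to -0.20 between the shRNAs. Between vector and either shRNA they correlated at 0.03 to 0.13. The values between the shRNAs carry the grouping of arrays across labels, so this check cannot decide whether the numbers pair the samples.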

Additional observations from a re-analysis of the deposited data

How the results depend on the processing

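The fall of both CASP2 probes with both shRNAs kept its direction and call under all 23 and 22 alternatives run; the brighter CASP9 probe kept its direction under 23 and its call under 21. Over all tests of the 16 probes, 1293 of 1424 alternative values kept direction and side of the threshold, 49 lost a call, 30 gained one and 52 changed sign, none of them called both ways. For both shRNAs against vector, the alternative with only the compared groups took all 9 arrays and so repeated the main fit. The fit with the chip as a block was not run because the headers used here give no chip.

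With both shRNAs against vector, called member probes went from 5 to 3 with 1 probe a gene (8 probes tested) and to 3 with the replicate number as a block, and ranged from 2 to 5 leaving out 1 array. All called probes went from 2906 to 7524 with array weights, 1470 with the block and 7103 on 7 arrays, and ranged from 572 (without vector replicate 2) to 3607; they were 675 and 615 without vector replicates 1 and 3. For shRNA 1 called member probes went from 3 to 5 with no background correction, 6 with array weights, 1 with the block, 6 on 7 arrays and 0 to 3 leaving out 1 array, and all probes from 1818 to 7851 with weights, 522 with the block, 7774 on 7 arrays and 170 to 2906. For shRNA 2 member probes went from 3 to 5 with no background correction, 0 with the block, 6 on 7 arrays and 0 to 4, and all probes from 1455 to 5124 with weights, 389 with the block, 6172 on 7 arrays and 114 to 2141. Between the shRNAs 0 became 1 member probe and 3434 probes with weights and 3 and 7320 on 7 arrays, and stayed at 0 in all 9 fits without 1 array. The causes were not tested. Under the block the CASP6 probe ILMN_2367113 and XIAP were not called with both shRNAs (adjusted p 0.0812 and 0.0727), nor were CRADD, PAK2, LMNA, PANX1 and MCL1. The 1 probe still called with shRNA 1 under the block was the brighter CASP2 probe; the brighter CASP9 probe had adjusted p 0.0516 with shRNA 1 and 0.0615 with shRNA 2.

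Of the values that changed sign the largest in size was -0.25, for CYCS with both shRNAs without shRNA 2 replicate 2. For both shRNAs CYCS was -0.15 with median centring, -0.040 with cyclic loess, -0.043 with array weights, -0.0045 on 7 arrays and -0.25 to 0.26 leaving out 1 array. DIABLO ILMN_1665335 was -0.070 with median centring, -0.034 with weights, -0.0058 on 7 arrays and -0.036 to 0.16. CASP9 ILMN_1786046 was -0.0037 with weights and -0.0053 to 0.28, and APAF1 ILMN_2344798 ranged from -0.20 to 0.0016. For shRNA 1 CASP9 ILMN_1786046 was -0.10 with weights and -0.012 to 0.40, APAF1 ILMN_2344798 0.093 on 7 arrays and -0.26 to 0.094, CYCS -0.0082 with median centring and -0.22 to 0.65, and DIABLO ILMN_1665335 -0.29 to 0.095. For shRNA 2 CASP8 ILMN_2377733 ranged from -0.19 to 0.0056 and CYCS from -0.66 to 0.16. Between the shRNAs CASP9 ILMN_1786046 was -0.0014 with normexp and an offset of 50 and -0.23 to 0.16, and DIABLO ILMN_2332990 0.035 on 7 arrays and -0.061 to 0.044. The other ranges between the shRNAs leaving out 1 array were -0.036 to 0.33 and -0.23 to 0.12 for APAF1, -0.012 to 0.54 and -0.085 to 0.46 for CASP2, -0.19 to 0.10 for CASP6 ILMN_2367113, -0.14 to 0.051 and -0.056 to 0.21 for CASP8, -0.091 to 0.079 for CASP9 ILMN_1718070, -0.81 to 0.087 for CYCS, -0.084 to 0.059 for DIABLO ILMN_2310589 and -0.23 to 0.044 for XIAP. Dim probes (XIAP, CASP8, the lower CASP9 and APAF1 probes) stand near background, which limits the size of any change they can show.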
